A study of Mus musculus with 288 samples.

Results

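The 7 genes described here act in the unfolded protein response and the integrated stress response: Xbp1, Atf6, Atf4, Ddit3, Herpud1, Trib3 and Asns. They were chosen by name, and each is represented by the probe set annotated to its symbol alone, 1 per gene, among 19938 genes measured. The study followed RNA of 12 mouse tissues on 288 Affymetrix arrays, 24 per tissue. All mice were C57/BL6, spent 1 week in 12 h of light and 12 h of dark, and were then kept in constant darkness. Each tissue (heart, aorta, lung, liver, kidney and adrenal gland, brown and white adipose, skeletal muscle, and brainstem, cerebellum and hypothalamus of the brain) was taken at 2 h steps between circadian times (CT) 18 and 64. There was 1 array per tissue and time, made from the pooled RNA of 3 mice. There were no replicates, no treatment and no mutant, and neither age nor sex is given in the sources used here. CT is the hour of the animal's own day, whose start is CT0, so that the subjective night runs from CT12 to CT24, and peak times are given within 1 day.

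When unfolded proteins gather in the endoplasmic reticulum (ER), the sensor IRE1 splices Xbp1 mRNA into the form that encodes an active transcription factor, and ATF6 is cut free from the membrane to act as another. A further sensor, PERK, phosphorylates the initiation factor eIF2alpha, as do other kinases when amino acids or heme are short, and this favours translation of ATF4. ATF4 in turn raises Ddit3, Trib3 and Asns. Each array measured total mRNA of these genes, so splicing of Xbp1, cleavage of ATF6 and translation of Atf4 were not measured. In RNA from whole tissue, fewer cells of a type and less RNA per cell cannot be told apart.

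Genes are placed on mouse build GRCm38.p6. Xbp1 (probe set 10374035, Entrez 22433) lies on chromosome 11 from 5520641 to 5525993, and Atf6 (10359982, Entrez 226641) on chromosome 1 from 170704457 to 170868585. Atf4 (10425364, Entrez 11911) lies on chromosome 15 from 80255184 to 80257545, and Ddit3 (10366881, Entrez 13198) on chromosome 10 from 127290793 to 127296291. Herpud1 (10574087, Entrez 64209) lies on chromosome 8 from 94386429 to 94395371, Trib3 (10488608, Entrez 228775) on chromosome 2 from 152337425 to 152344060, and Asns (10543067, Entrez 27053) on chromosome 6 from 7675165 to 7693209.

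Promoter windows of 300 bases, from 250 before the start site to 50 after it, were available from RefSeq for 6 of the 7 genes, all except Atf6. The windows of Herpud1, Asns and Trib3 are shown because these genes had the widest daily waves and hold letters of stress response elements. In capitals are the core of the CARE, an element bound by ATF4 (TGATGNAA), the ERSE-II, an element bound by ATF6 and XBP1 (ATTGGNCCACG), and the E-prime box, a variant of the element bound by the clock factors CLOCK and BMAL1 (CACGTT). The 5′ to 3′ sequences follow the strand of each gene.
Herpud1, chr8:94386179-94386478, plus strand: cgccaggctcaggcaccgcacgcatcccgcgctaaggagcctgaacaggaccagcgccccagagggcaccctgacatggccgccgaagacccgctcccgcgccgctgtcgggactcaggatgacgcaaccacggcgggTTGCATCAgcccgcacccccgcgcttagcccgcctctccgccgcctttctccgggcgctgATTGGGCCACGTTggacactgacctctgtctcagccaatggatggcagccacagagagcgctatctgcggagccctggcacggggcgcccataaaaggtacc
Asns, chr6:7693160-7693459, minus strand: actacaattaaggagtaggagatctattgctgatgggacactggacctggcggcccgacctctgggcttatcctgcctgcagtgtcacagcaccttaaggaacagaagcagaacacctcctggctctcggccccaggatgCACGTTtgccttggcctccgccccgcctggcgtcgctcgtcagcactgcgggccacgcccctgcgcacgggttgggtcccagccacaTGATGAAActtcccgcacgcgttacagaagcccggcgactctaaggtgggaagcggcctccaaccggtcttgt
Trib3, chr2:152344011-152344310, minus strand: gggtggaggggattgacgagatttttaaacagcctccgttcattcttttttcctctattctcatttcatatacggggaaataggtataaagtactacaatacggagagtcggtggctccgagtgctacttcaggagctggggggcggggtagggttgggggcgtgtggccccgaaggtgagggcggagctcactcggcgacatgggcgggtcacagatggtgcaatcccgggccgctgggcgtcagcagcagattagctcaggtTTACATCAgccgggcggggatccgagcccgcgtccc
Herpud1 held the CARE core on the opposite strand from -112 to -105, counted from the start site, an ERSE-II from -52 to -42 and an E-prime box from -45 to -40, which overlaps the ERSE-II. Asns held an E-prime box from -110 to -105 and the CARE core from -23 to -16. Trib3 held the CARE core on the opposite strand, from 14 to 21 after the start. Both strands were searched, and among 32851 windows of the same length the CARE core was present in 3.97%, the ERSE-II in 0.0365% and the E-prime box in 4.68%. The windows of the other 3 genes held none of them. The ERSE-II and the E-prime box were added to the search after the Herpud1 window had been read. None of the 6 windows matched the ERSE (CCAAT and CCACG with 9 bases between them, in 0.119% of windows), the UPRE (TGACGTGG, 0.676%), the E-box (CACGTG, 7.15%) or the core of the D-box (TTATGNAA, 3.38%). Such matches describe letters only and are not measurements of binding.

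Levels differed between tissues by very different amounts. Values are log2 of the deposited intensity, and the spread given with a mean is the SD over the 24 times (n = 24), which includes any daily wave. No test was made of levels, since the arrays of each tissue appear to have been normalized apart.
Asns, which makes asparagine from aspartate and glutamine, spanned 17.6-fold between tissue means. It averaged 11.50 ± 0.08 in hypothalamus, 11.28 ± 0.26 in white adipose, 11.21 ± 0.03 in brainstem and 11.18 ± 0.05 in cerebellum. In heart it averaged 7.45 ± 0.11 and in skeletal muscle 7.36 ± 0.28. The 24 arrays of hypothalamus and the 24 of skeletal muscle did not overlap, at 11.18 to 11.58 and 6.87 to 8.05. Moving down the order of Asns levels, brown adipose, aorta, adrenal gland, lung and kidney each lay above the next by more than the larger SD of the neighbours. Among the highest 5 tissues no neighbours differed beyond their spread, nor did liver and kidney, or heart and skeletal muscle.
Herpud1, an ER membrane protein of the machinery that removes misfolded proteins, spanned 7.28-fold. It averaged 12.40 ± 0.36 in liver, 11.33 ± 0.24 in heart and 11.21 ± 0.23 in kidney, against 9.53 ± 0.10 in brainstem. Liver stood above heart by 1.07, more than either SD.
Xbp1 spanned 4.89-fold, from 12.29 ± 0.07 in liver to the brainstem, where the arrays lay between 9.78 and 10.20, with white adipose next below liver at 11.33 ± 0.12. The liver arrays, between 12.18 and 12.40, were all above the arrays of white adipose, at most 11.58.
Atf6 spanned 4.72-fold, with 11.02 ± 0.17 in heart and 10.80 ± 0.10 in liver. Next came lung at 9.91 ± 0.06, and the lowest was hypothalamus at 8.78 ± 0.12.
The 3 other genes varied least between tissues in the deposited values. Trib3, a pseudokinase that dampens ATF4 signalling, spanned 2.06-fold, from 7.13 ± 0.18 in brown adipose to 6.08 ± 0.10 in brainstem. In 10 of 12 tissues it lay below the median gene, liver and brown adipose being the exceptions. Atf4 spanned 1.95-fold, from 9.01 ± 0.08 in skeletal muscle to 8.04 ± 0.06 in brainstem. Ddit3, which encodes the death-promoting transcription factor CHOP, spanned 1.75-fold, from 8.13 ± 0.14 in brown adipose to 7.32 ± 0.09 in brainstem. Over all 7 genes, 28 of 77 differences between neighbours in these orders exceeded the spread.
Quantile normalization of all 288 arrays together moved the median gene of liver by -0.27 and those of the other tissues by -0.11 to 0.10 on the log2 scale. It placed Xbp1 highest in white adipose, Atf4 lowest in hypothalamus and Asns lowest in heart. The span of Herpud1 then was 1.78 in place of 2.86 and that of Xbp1 1.37 in place of 2.29, both on the log2 scale. The spans of 3 genes widened, to 1.34 from 0.963 for Atf4, 1.28 from 1.04 for Trib3 and 1.09 from 0.805 for Ddit3. Xbp1 and Atf4 then had similar spans. Atf6 (2.25 in place of 2.24) and Asns (4.13 in both) changed little.

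**Figure D1:**
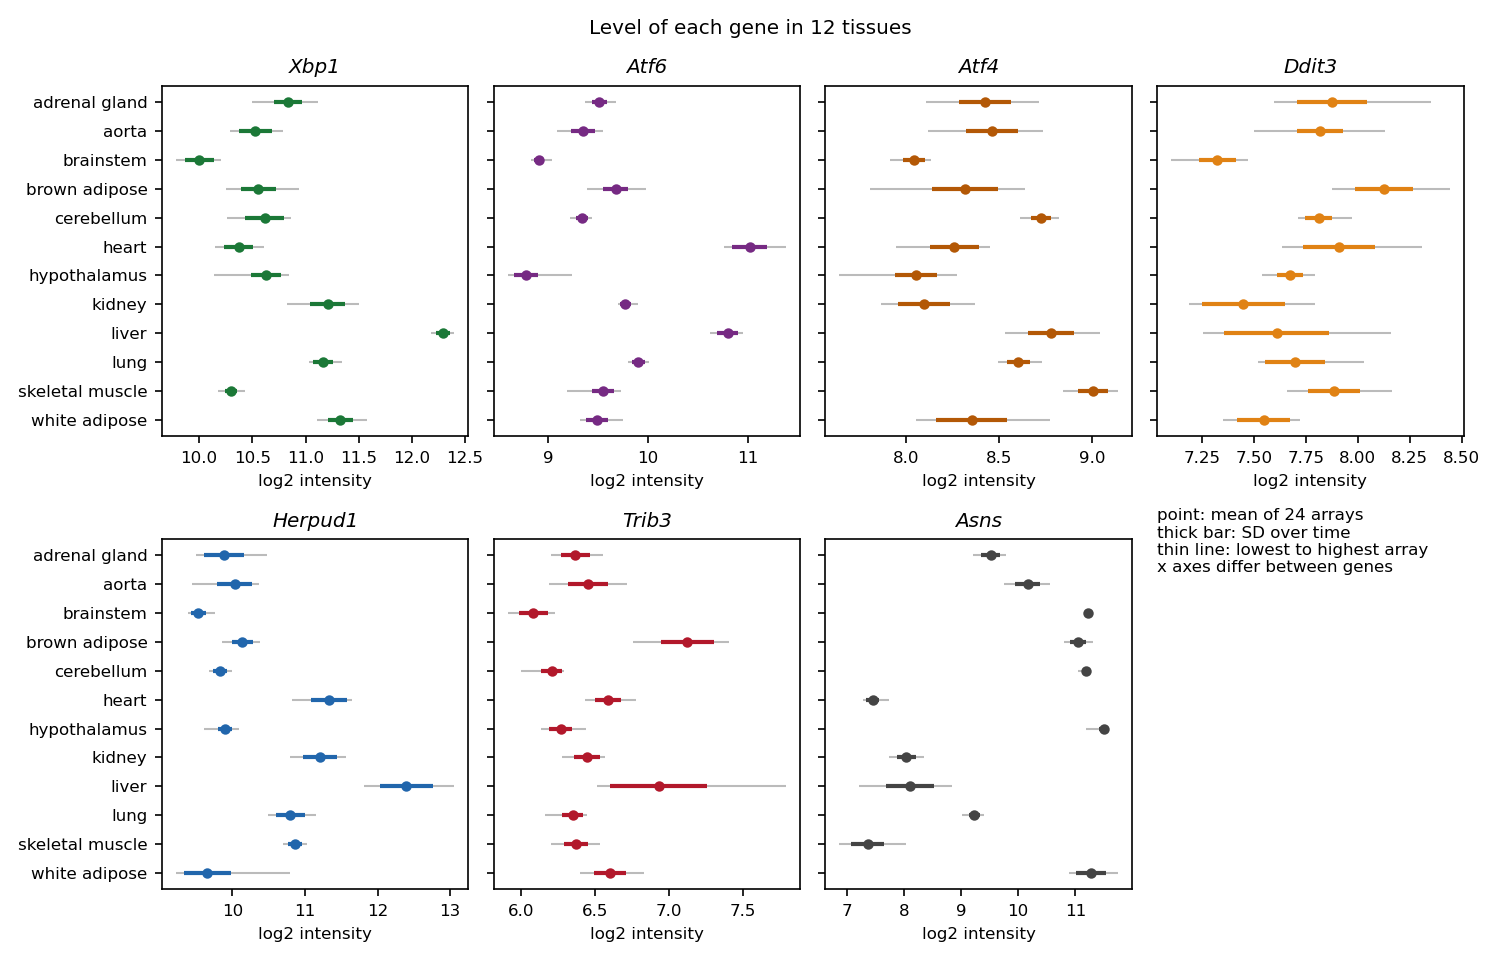
Log2 intensity (x axis) of each gene in 12 tissues (y axis). Points are means of 24 arrays, thick bars the SD over time and thin lines the lowest and highest array. Asns separates brain and adipose tissues, near 11, from heart and skeletal muscle, near 7, while Ddit3 and Trib3 differ little apart from the long range of Trib3 in liver.

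A wave with a period of 24 h was fitted to the 24 arrays of each tissue with limma, and its size is given as the peak-to-trough fold with a 95% interval. A wave was called where the p-value, after Benjamini-Hochberg adjustment across the 19938 genes of that tissue, was under 0.05. Of the 84 pairs of gene and tissue 22 were called, and 41 had an unadjusted p under 0.05. Herpud1 was called in 8 tissues, Xbp1 and Asns in 4 each, Atf6 in 3, and Atf4, Ddit3 and Trib3 in 1 each. For 16 of the 22 waves the peak fell in the subjective night, a share that was not counted for all called genes. Some peaks lay close to CT12, such as Herpud1 in kidney (CT11.97, SE 0.406 h), counted as day. Atf6 in liver (CT12.6, SE 0.905 h) was counted as night. When each day was fitted alone, the peak times of the 2 days lay within 4 h of each other in 21 of 22, the exception being Asns in adrenal gland, at 4.52 h. With normal scores of ranks in place of log2 values 14 of the 22 remained called, and those lost were Herpud1 in adrenal gland, aorta, cerebellum and skeletal muscle, Asns in adrenal gland and aorta, and Xbp1 in brainstem and cerebellum (adjusted p from 0.0524 to 0.110).
The share of all genes called sets the scale for these counts. In kidney 3 of the 7 genes were called, where 25.8% of all genes were, in liver 4 (26.8% of all genes), in heart 3 (8.64%) and in lung 2 (20.9%). Adrenal gland had 2 called (5.89%), aorta 2 (5.09%) and cerebellum 2 (5.49%). In brainstem 1 was called (4.78%), in brown adipose 1 (16.5%), in skeletal muscle 1 (5.12%), in white adipose 1 (4.85%) and in hypothalamus none (1.8%). In hypothalamus 2 of 7 had an unadjusted p under 0.05. The share of all genes with an unadjusted p under 0.05 was not counted, so such counts have no scale beside them. The median fitted fold of the 7 genes was 1.20 in liver, 1.19 in heart and 1.16 in kidney, against 1.09, 1.07 and 1.08 for all genes of the same tissues. In skeletal muscle it was 1.05, against 1.07 for all genes.

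**Figure D2:**
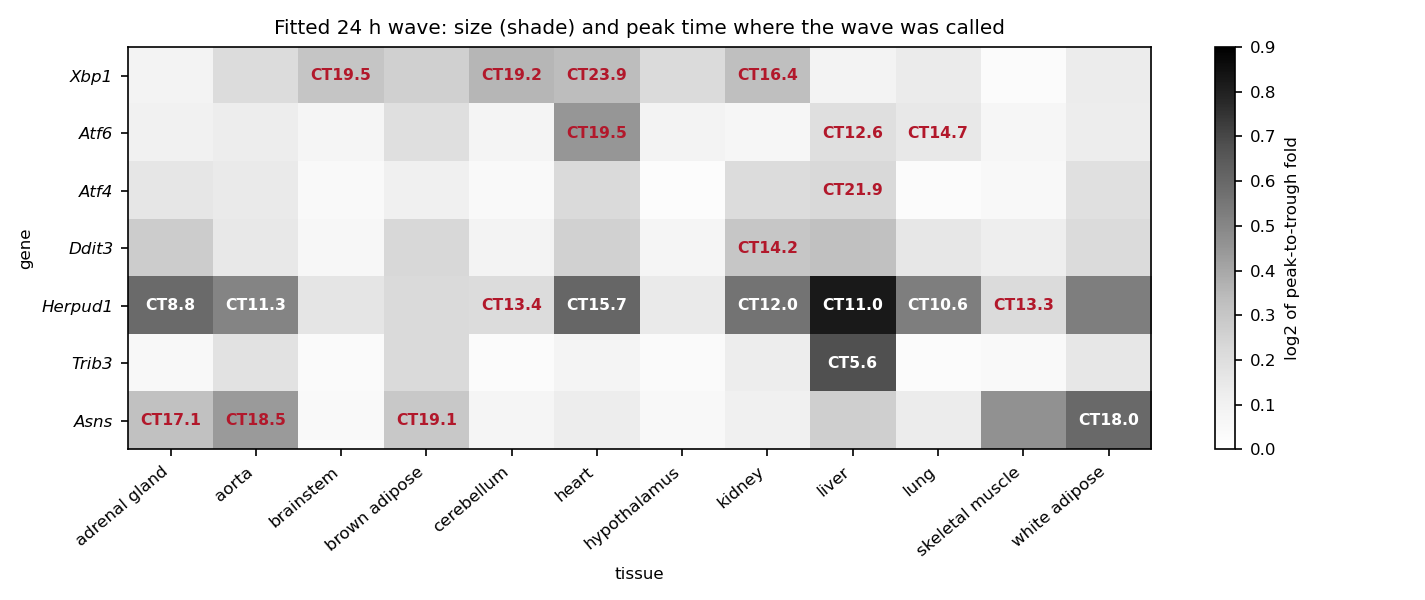
Fitted 24 h waves of the 7 genes (rows) in 12 tissues (columns). The shade gives the log2 of the peak-to-trough fold, and a peak time is printed only where the wave was called. The Herpud1 row holds 8 called waves with peaks from CT8.80 to CT15.7, while the Trib3, Atf4 and Ddit3 rows hold 1 each.

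Herpud1 had the most widespread wave, high around the start of the subjective night. In liver its 24 values ran from 11.82 at CT46 through a median of 12.35 to 13.06 at CT60. The values from CT30 to CT40 all lay between 12.53 and 12.77, and those from CT44 to CT50 between 11.82 and 12.30. The fitted wave was 1.77-fold (1.50 to 2.08) with a peak at CT11.0 (adjusted p = 2.1e-05). In heart Herpud1 ran from 10.82 at CT28 through a median of 11.40 to 11.65 at CT40, a wave of 1.52-fold (1.39 to 1.65) with its peak at CT15.7 (adjusted p = 2.09e-07). In kidney the lowest array was 10.80 at CT22, the median 11.21 and the highest 11.57 at CT38, with a wave of 1.48-fold (1.36 to 1.61, peak CT12.0, adjusted p = 2.28e-07). Thus liver and kidney passed on both days from a low around the subjective dawn to a high around dusk, and heart stayed high further into the night, with 11.63 at CT46.
Lung gave the smallest p of all 84 pairs, with values from 10.49 at CT46 to 11.16 at CT36, a fold of 1.44 (1.36 to 1.52) and a peak at CT10.6 (adjusted p = 4.47e-10). Aorta had a Herpud1 wave of 1.42-fold (1.24 to 1.62, peak CT11.3, adjusted p = 0.00343), and cerebellum (peak CT13.4) and skeletal muscle (peak CT13.3) had 1.16-fold waves each. In adrenal gland the wave was 1.51-fold (1.30 to 1.75) with the earliest peak, CT8.80 (adjusted p = 0.00259). The mean of 7 hepatocyte markers in the adrenal arrays ran from 6.65 to 12.67, and liver had the highest Herpud1 of the 12 tissues. With that mean as a covariate the adrenal wave of Herpud1 was 1.43-fold, with a peak at CT9.30 and an adjusted p of 0.00588. In aorta the same markers ran from 6.56 to 10.65, and with them as a covariate Herpud1 had 1.41-fold (adjusted p = 0.00409).
In the other 4 tissues the Herpud1 wave missed the threshold: adjusted p = 0.0511 in brainstem (1.12-fold, peak CT13.3), 0.0804 in brown adipose (1.16-fold, peak CT10.5), 0.102 in white adipose (1.44-fold, peak CT12.7) and 0.228 in hypothalamus (1.11-fold, peak CT11.4). The highest array of white adipose was 10.80 at CT40, against a tissue median of 9.63. On that array the mean of 6 smooth muscle markers was 10.62 against a median of 9.08. Without the white adipose arrays that stood apart, the Herpud1 wave was still not called. The part of smooth muscle in the CT40 value itself was not tested. In all 12 tissues the fitted peak lay between CT8.80 and CT15.7.

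The place of Herpud1 beside the clock genes varied between tissues. In the 8 tissues with a called wave it peaked between 0.486 and 5.50 h after Dbp (median 1.96 h), a direct output of the clock, and its peak minus that of Per2, a gene of the clock's negative arm, ran from -4.50 to 3.14 h (median -1.72 h). Against Per3 the difference ran from -2.11 to 4.43 h (median 0.330 h). The fitted Herpud1 peak thus came after that of Dbp in all 8 tissues, but before that of Per2 in some and after it in others. In adrenal gland the lag after Dbp, 0.486 h, was smaller than the SE of the Herpud1 peak, 0.676 h. Heart was the tissue where Herpud1 came latest after each of these 3 clock genes. Over 288 arrays, centred per tissue, the genes with profiles most like Herpud1 were Tef (Pearson r = 0.68), a transcription factor of the same family as Dbp, Per3 (r = 0.64) and Usp2 (r = 0.62), a deubiquitinating enzyme under clock control. For Tef the correlation within a tissue ran from 0.35 in brainstem to 0.90 in lung. The median r of all genes with Herpud1 was -0.01, and the points share arrays and the 24 h sampling.

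Xbp1 was called in brainstem, cerebellum, heart and kidney, with peaks between CT16.4 and CT23.9. Brainstem values ran from 9.78 at CT56 to 10.20 at CT18, with a fitted fold of 1.23 (1.16 to 1.32) and a peak at CT19.5 (adjusted p = 0.000337). Cerebellum had 1.28-fold (1.16 to 1.41, peak CT19.2, adjusted p = 0.00436), with values from 10.26 at CT34 to 10.86 at CT62. Heart had 1.26-fold (1.19 to 1.34, peak CT23.9, adjusted p = 4.66e-06), with 10.61 at CT50 as the highest array and 10.15 at CT60 as the lowest. In these 3 tissues Xbp1 was therefore high in the subjective night, or in heart around its end. In kidney Xbp1 ran from 10.83 at CT28 to 11.50 at CT64, with 1.26-fold (1.15 to 1.37, peak CT16.4, adjusted p = 0.000681). That call was lost, at an adjusted p of 0.0664, with the mean of 6 white adipocyte markers as a covariate, which ran from 6.86 to 8.29 in the kidney arrays. Liver, where Xbp1 was highest, had 1.06-fold (1.01 to 1.12) and an adjusted p of 0.164. Brown adipose (1.20-fold, adjusted p = 0.0540) and lung (1.10-fold, adjusted p = 0.0651) just missed the threshold.
Profiles most like Xbp1 were those of Pdia4, a protein disulfide isomerase of the ER (r = 0.58), Manf, a secreted ER stress protein (r = 0.55), and Chordc1, a cochaperone of Hsp90 (r = 0.54). For Pdia4 the correlation within a tissue reached 0.90 in brainstem and was -0.11 in white adipose.

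Herpud1 came hours before the chaperone genes, and Xbp1 close to them. A list of 16 ER chaperones and folding enzymes was called in 15 of 16 genes in kidney (25.8% of all genes were), with a mean peak at CT19.9, among them Dnajc3 (1.35-fold, peak CT20.2), an ER cochaperone that also inhibits PERK, Hsp90b1 (1.58-fold, peak CT20.7), the Hsp90 of the ER, and the calcium-binding chaperone Calr (1.29-fold, peak CT21.7). It was called in 13 genes in lung (20.9% of all genes), in 12 each in brainstem (4.78%) and cerebellum (5.49%), and in none in white adipose (4.85%). The median fold of the list in kidney was 1.49, against 1.08 for all genes. In the 8 tissues with a called Herpud1 wave, the peak of Herpud1 minus the mean peak of the called chaperone genes ran from -9.41 to -6.58 h (median -8.35 h). The means rest on few genes in adrenal gland, with 2 called, and skeletal muscle, with 3, and in heart 4 of the 10 called chaperone genes peaked in the subjective day. In the 4 tissues with a called Xbp1 wave, that difference for Xbp1 ran from -3.45 h in kidney to 0.225 h in heart. In the 3 tissues where both genes were called, Xbp1 followed Herpud1 by 4.44 ± 0.816 h in kidney, 5.77 ± 0.978 h in cerebellum and 8.18 ± 0.594 h in heart (± SE). These differences are descriptions of fitted peaks. Heart was late throughout: its called chaperone genes had a mean peak at CT23.6, while Per2 peaked at CT12.5 there and at CT13.5 in kidney.

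**Figure D3:**
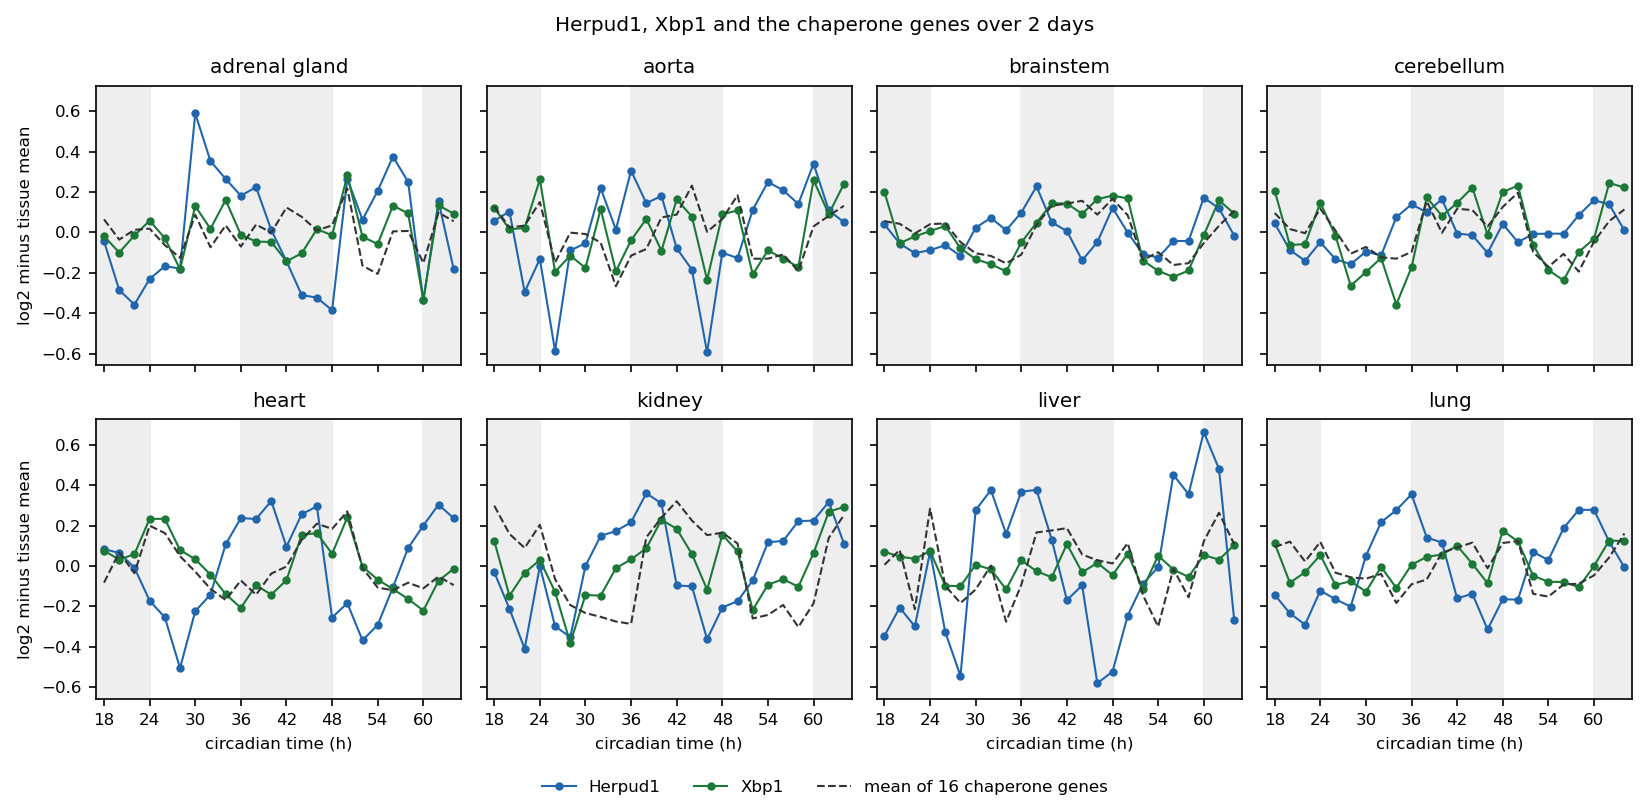
Herpud1 (blue), Xbp1 (green) and the mean of 16 ER chaperone genes (dashed) in 8 tissues, as log2 minus the tissue mean (y axis) against circadian time in hours (x axis), 1 array per point. Grey marks subjective night. In heart and kidney Xbp1 and the called chaperone genes have later fitted peaks than Herpud1, and in liver Herpud1 spans over 1 log2 unit while Xbp1 stays near its mean.

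**Figure D4:**
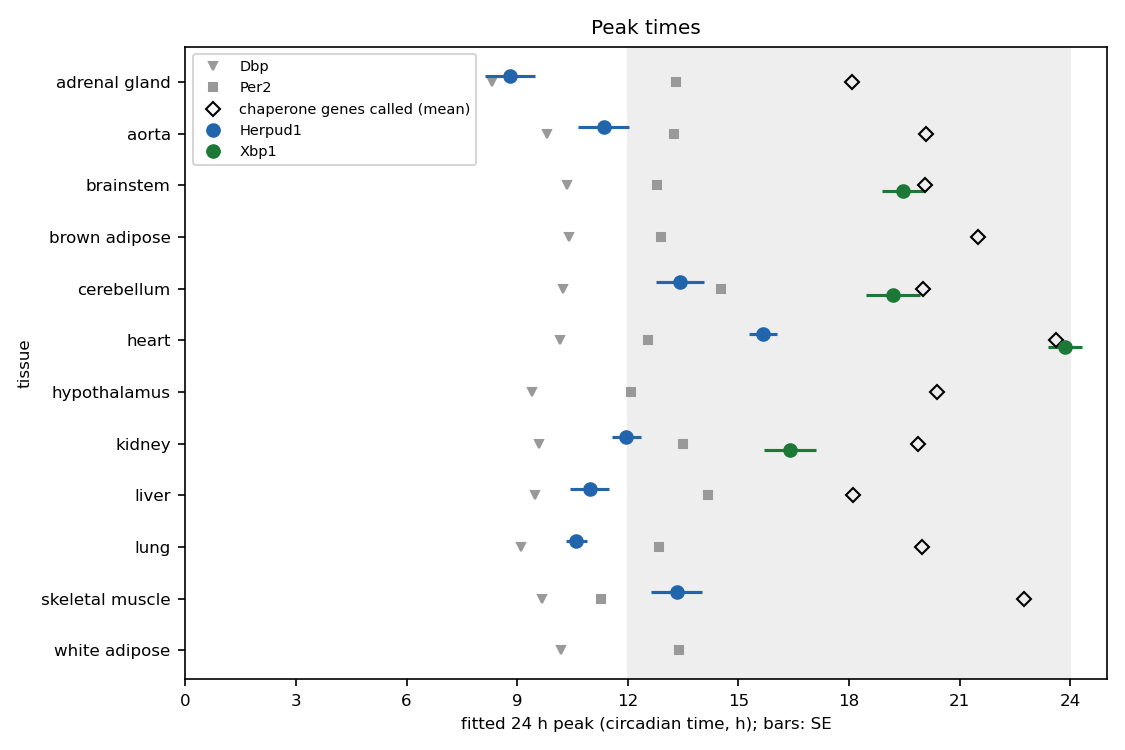
Fitted 24 h peak times (x axis, CT in hours) by tissue (y axis) of Herpud1 and Xbp1 where called, with SE bars, of the clock genes Dbp and Per2, and the mean peak of the called chaperone genes. Herpud1 lies between CT8.80 and CT15.7, from 0.486 to 5.50 h after Dbp and from 4.50 h before to 3.14 h after Per2. The means of the chaperone genes lie between CT18.1 and CT23.6.

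Atf6, whose protein is the membrane-bound factor of the response, had its widest wave where its level was highest. Heart values ran from 10.77 at CT30 through 11.02 to 11.38 at CT20, and every array from CT40 to CT50 lay at or above 11.07 while those from CT28 to CT32 were at most 10.81. The fitted fold was 1.36 (1.29 to 1.44, peak CT19.5, adjusted p = 3.76e-08). In liver it was 1.15 (1.07 to 1.22, peak CT12.6, adjusted p = 0.00740) and in lung 1.11 (1.07 to 1.15, peak CT14.7, adjusted p = 0.000204). The genes most like Atf6 were Pfkfb2 (r = 0.59), which makes the glycolysis activator fructose 2,6-bisphosphate, the scaffold gene Homer1 (r = 0.54), and Sec23ip (r = 0.52), which binds a coat protein of ER export.

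Atf4, translated when eIF2alpha is phosphorylated, was called in liver alone. Its liver values ran from 8.53 at CT34 through 8.79 to 9.04 at CT24, with a fold of 1.17 (1.07 to 1.27), a peak at CT21.9 and an adjusted p of 0.0156. The call was lost with quantile normalization of the liver arrays (adjusted p = 0.154) and with array weights (0.0507). In kidney Atf4 had 1.16-fold and a peak at CT15.5 (adjusted p = 0.0508), and in heart 1.16-fold (adjusted p = 0.0662). Ddit3 was called in kidney alone, where it ran from 7.19 at CT54 through 7.45 to 7.79 at CT38 (1.23-fold, 1.08 to 1.41, peak CT14.2, adjusted p = 0.0427). It lost the call with a straight line over time (adjusted p = 0.0562), without the CT54 array, which stood apart by pancreatic acinar markers (0.0614), and with the mean of white adipocyte markers as a covariate (0.328). In liver Ddit3 had the widest scatter, from 7.25 at CT20 to 8.16 at CT56, and a 1.25-fold wave with an adjusted p of 0.151. Neighbouring liver arrays differed widely, as with 7.31 at CT54, 8.16 at CT56 and 7.56 at CT58.
Within kidney, Atf4 and Ddit3 had a correlation of 0.80 over the 24 arrays, the highest of the 12 tissues for this pair. The lowest was -0.10 in skeletal muscle, and over all 288 arrays it was 0.29. The genes most like Ddit3 were Dnajb1 (r = 0.50), a cochaperone of the heat shock response, Arfip2 (r = 0.46) and Gnl3 (r = 0.46). Those most like Atf4 were the transcription factor gene Srf (r = 0.53), the splicing regulator Tra2b (r = 0.53) and Ankrd52 (r = 0.52). The strongest correlation among the 7 genes over 288 arrays was that of Ddit3 with Herpud1 (r = 0.38).

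Trib3 rose in liver during the subjective day, on both days. Its liver values were 7.27, 7.66, 7.31 and 7.14 from CT26 to CT32, and 7.30 and 7.79 at CT52 and CT54, while the median over 24 arrays was 6.85 and the lowest value 6.52 at CT46. Only these 6 arrays of liver exceeded 7, and none of kidney did. The fitted fold was 1.60 (1.35 to 1.90), with a peak at CT5.61 and an adjusted p of 0.000479. This call was kept under each of the 9 alternative settings, with adjusted p from 0.000158 to 0.00331. In no other tissue was a Trib3 wave called, the nearest by adjusted p being kidney (1.09-fold, adjusted p = 0.135). Brown adipose, where Trib3 was highest, had a 1.16-fold wave with a peak at CT5.40, close to that of liver (adjusted p = 0.228). Profiles most like Trib3 were those of Clec2h (r = 0.50), the receptor tyrosine kinase gene Erbb4 (r = 0.48) and the mitochondrial sodium-calcium exchanger gene Slc8b1 (r = 0.46). Their correlations within liver, the highest of the 12 tissues, were 0.81, 0.68 and 0.76. The lowest were -0.12 for Clec2h in brown adipose, -0.35 for Erbb4 in cerebellum and -0.30 for Slc8b1 in adrenal gland.

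Asns was called in both adipose tissues, aorta and adrenal gland, with peaks in the subjective night. With hepatocyte markers as a covariate the adrenal wave was 1.28-fold (adjusted p = 0.0290). White adipose had 11.75 at CT18 and 11.62 to 11.66 from CT40 to CT46, against 10.89 at CT28 and 10.95 at CT52. The fitted fold was 1.51 (1.34 to 1.71, peak CT18.0, adjusted p = 0.000316), and with lung epithelium markers as a covariate, whose mean ran from 5.71 to 11.02 in these arrays, it was 1.55 (adjusted p = 4.41e-05). Aorta had 1.35-fold (1.20 to 1.53, peak CT18.5, adjusted p = 0.00764), with values from 9.75 at CT50 to 10.55 at CT42. Adrenal gland had 1.25-fold (1.12 to 1.39, peak CT17.1, adjusted p = 0.0275) and brown adipose 1.23-fold (1.13 to 1.33, peak CT19.1, adjusted p = 0.00173). In the brown adipose arrays the mean of 12 skeletal muscle fibre markers ran from 6.57 to 11.73, and with it as a covariate the wave was 1.21-fold (adjusted p = 0.00614). White adipocyte markers averaged 11.45 in aorta, with a range of 11.14 to 11.65, and 10.63 in adrenal gland, with a range of 10.08 to 11.08, and their part in the Asns waves there was not tested. The 4 peaks thus lay within CT17.1 and CT19.1. Brain tissues, where Asns was high, varied little: brainstem ran from 11.15 to 11.27, with a 1.03-fold wave (adjusted p = 0.529).
In liver Asns had the widest range of any of the 84 pairs, 3.09-fold, from 7.22 at CT40 through 8.11 to 8.85 at CT26, yet its 24 h wave was 1.20-fold (upper bound 1.66) with an adjusted p of 0.636. The values jumped between neighbouring arrays, as with 8.27 at CT38, 7.22 at CT40 and 8.65 at CT42. Skeletal muscle ran from 6.87 at CT58 to 8.05 at CT22, with 7.89 at CT20 and CT24 (1.38-fold, adjusted p = 0.0730). The muscle arrays of CT22 and CT24 stood apart by lymphocyte markers, with means of 6.71 and 6.90 against a median of 5.67. That of CT22 also stood apart by hepatocyte markers, at 8.03 against 6.34. White adipocyte markers ran from 7.72 to 9.75 in muscle, and neuron markers from 6.54 to 7.70. Oligodendrocyte markers ran from 6.46 to 7.45, and each of these lists was highest at CT24. Without the muscle arrays that stood apart, at CT22, CT24, CT42 and CT46, the adjusted p of the 24 h wave was 0.304. The part of these cell types in the Asns values themselves was not tested. The profiles most like Asns were those of the prostaglandin receptor gene Ptger3 (r = 0.49), Pgd (r = 0.41), an enzyme of the pentose phosphate pathway, and Cyria (r = 0.41).

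**Figure D5:**
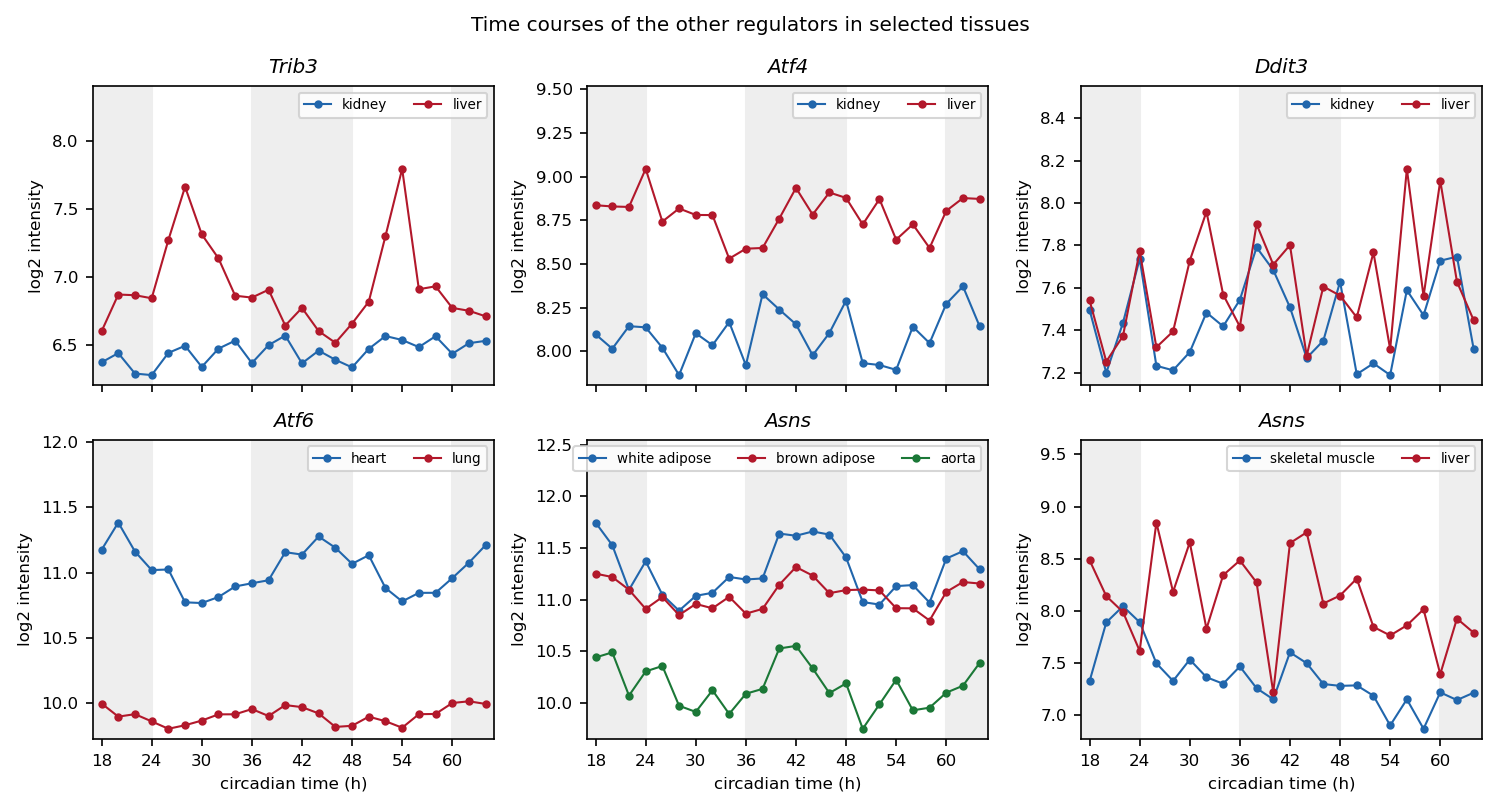
Log2 intensity (y axis) against circadian time in hours (x axis), 1 array per point, for Trib3, Atf4 and Ddit3 in kidney and liver, Atf6 in heart and lung, and Asns in 5 tissues. Grey marks subjective night. Trib3 in liver rises above 7 at CT26 to CT32 and at CT52 to CT54, and Asns in liver jumps between neighbouring arrays.

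Among the other genes of these pathways, 82 were measured. At 24 h 52.4% of them were called in kidney (25.8% of all genes), 42.7% in liver (26.8% of all genes), 42.7% in lung (20.9%) and 8.54% in white adipose (4.85%). Of 16 genes of ER-associated degradation, the process in which Herpud1 takes part, 11 were called in kidney (25.8% of all genes were), all with night peaks and a mean of CT18.1. They included Sel1l (1.21-fold, peak CT18.3), an adaptor of the ubiquitin ligase of that process, Derl2 (1.25-fold, peak CT20.4) and Selenos (1.20-fold, peak CT19.7), both of the ER membrane. Herpud1 itself, at CT12.0, peaked before that mean. Of 5 sensors and proteases, 2 were called in kidney, where 25.8% of all genes were: Eif2ak3, which encodes PERK (1.13-fold, peak CT19.0), and Ern2, a relative of IRE1 (1.16-fold, peak CT11.3). In liver (26.8% of all genes) and lung (20.9%) 1 of them was called each, and in the other 9 tissues none.
Of 8 genes listed for eIF2alpha kinases, phosphatase subunits and proteins acting with them 4 were called in lung (20.9% of all genes). They included Dnajc3 (1.12-fold, peak CT18.4), which is also in the chaperone list, and the heme-regulated kinase Eif2ak1 (1.12-fold, peak CT14.7). The amino acid sensor Eif2ak4 (1.11-fold, peak CT9.94) was another. Eif2ak3 is in this list as well as among the sensors. Of 16 transcription and signalling genes known as ATF4 targets 5 were called in brown adipose (16.5% of all genes), and likewise 5 each in heart (8.64%), liver (26.8%) and lung (20.9%). Those named by the smallest p in brown adipose were Trib1 (1.45-fold, peak CT7.78), a relative of Trib3, Ddit4 (1.53-fold, peak CT9.62), an inhibitor of mTORC1, and Eif4ebp1 (1.17-fold, peak CT7.16), a repressor of translation. Of 18 amino acid genes known as ATF4 targets 10 were called in liver (26.8% of all genes), where Asns was not: the glycine transporter Slc6a9 (1.51-fold, peak CT13.0), Cth, which makes cysteine (1.31-fold, peak CT0.318), and the transaminase Gpt2 (1.25-fold, peak CT13.7) led them. Of 5 ER-tethered relatives of ATF6 2 were called in heart (8.64% of all genes), Creb3l1 (1.40-fold, peak CT0.440) and Creb3l2 (1.20-fold, peak CT0.493), around the start of the subjective day, while Atf6 peaked there at CT19.5.

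Waves with a period of 12 h were fitted beside those of 24 h and 8 h. None of the 84 pairs was called by limma, and 11 had an unadjusted p under 0.05. The share of all genes at that unadjusted threshold was not counted. Such waves were called for 0% of all genes in adrenal gland, aorta, cerebellum, hypothalamus and white adipose, 0.00502% in brainstem, heart and kidney, 0.0602% in lung, 0.326% in liver, 4.83% in brown adipose and 6.99% in skeletal muscle. The lowest adjusted p was that of Atf6 in skeletal muscle (1.11-fold, adjusted p = 0.148). Trib3 in liver had the widest of the 11, 1.28-fold (1.13 to 1.47, unadjusted p = 0.00304, adjusted p = 0.205). For Xbp1, 4 tissues had an unadjusted p under 0.05. Their fitted 12 h peaks were CT1.96 in kidney, CT2.27 in brainstem, CT2.39 in lung and CT2.45 in cerebellum, each repeated 12 h later. The adjusted p of these 4 was 0.564 or above. They were picked by unadjusted p among tissues that shared sampling times, so no 12 h wave of Xbp1 is claimed.

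The waves differed between tissues. In a fit to all 288 arrays, the difference in 24 h wave between the 12 tissues passed the threshold for all 7 genes, as it did for 49.6% of all genes. The adjusted p was 8.09e-14 for Herpud1, 1.67e-13 for Atf6, 1.58e-09 for Xbp1, 2.25e-09 for Trib3, 0.000158 for Ddit3, 0.000239 for Asns and 0.00315 for Atf4. For 12 h waves no gene passed (13.9% of all genes did), and the lowest adjusted p from limma was 0.0558, for Atf4. An unadjusted p under 0.05 was found for Atf4, Herpud1, Atf6 and Trib3 and not for Xbp1, Ddit3 and Asns. How many of all genes had such an unadjusted p was not counted, so this list has no scale beside it. With sampling time as a block Atf4 (adjusted p = 0.00951) and Herpud1 (0.0486) passed, as did 15.5% of all genes.
Kidney and liver, the tissues with the largest shares of called genes, were set against each other. Trib3 differed (1.09-fold and a peak at CT10.4 in kidney, 1.60-fold and CT5.61 in liver, adjusted p = 2.88e-08), and so did Atf4, with like folds of 1.16 in kidney and 1.17 in liver but a peak 6.41 h earlier in kidney (adjusted p = 0.0319). The test passed for 15.6% of all genes. For Herpud1 the folds were 1.48 in kidney and 1.77 in liver (adjusted p = 0.140), and for Xbp1 1.26 in kidney and 1.06 in liver (adjusted p = 0.0987). Tissues shared the sampling times, and whether they shared mice is not given. In 2 fits added after seeing the data, Xbp1 also passed, with sampling time as a block (adjusted p = 0.0362, 16.7% of all genes called) and with the wave fitted to kidney minus liver at each time (adjusted p = 0.0126, 22.6% of all genes called). In the fit of differences Atf6 passed as well (adjusted p = 0.0168), and Herpud1 had an adjusted p of 0.0504.

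In a profile averaged over the 12 tissues, an analysis chosen after seeing the data, 5 of the 7 genes had a called 24 h wave, where 32.1% of all genes did. Herpud1 varied 1.30-fold (1.24 to 1.36, peak CT11.8, adjusted p = 2.69e-08), Asns 1.14-fold (peak CT19.9), Xbp1 1.10-fold (peak CT19.5), Trib3 1.07-fold (peak CT6.63) and Atf6 1.03-fold (peak CT18.8, adjusted p = 0.0395). Ddit3 (1.08-fold, adjusted p = 0.0980) and Atf4 (1.02-fold, adjusted p = 0.843) were not called. Without the arrays that stood apart, Atf6 was not called either (adjusted p = 0.0527). None of the 7 genes was called at 12 h in this profile, where 0.808% of all genes were, and the lowest adjusted p was that of Trib3 (0.188).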

How the data were processed

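RNA of 12 tissues was measured on 288 arrays of 35556 probe sets. GCRMA and Expression Console are the tools named in the submitters' processing notes, whose versions and order are not given in the sources used here. The deposited values are linear intensities of probe sets, with array medians from 95.2 to 106.6. The planned tests assumed a log2 table. Intensities were taken to log2 with no pseudocount. Of the probe sets 21789 carried 1 gene symbol, 1621 several and 12146 none in GEO's annotation. Genes with several probe sets took the brightest on average over all arrays. No filter on low intensity was used. Waves were fitted with limma 3.58.1 in R 4.3.3 (cosine and sine per period, moderated F test with a trend in the prior variance, Benjamini-Hochberg adjustment over 19938 genes). With 1 pool per tissue and time, p-values measure the scatter of pools around a wave, and precision is limited by the 24 arrays of a tissue. Whether the organs of a time came from the same mice is not given in the sources used here. Differences between tissues were tested with interaction coefficients over all arrays.

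Arrays stood apart where the mean of a marker list of another cell type was off the tissue's median by more than 5 scaled median absolute deviations and by over 1 on the log2 scale. The defining markers of each labelled tissue were present. The 7 genes and all lists were chosen with earlier results of these data known. Named beside them were up to 3 genes per list, by adjusted p in the tissue with most calls, 3 most alike genes per member, and clock genes for timing. The scripts were tested on simulated data. Mbtps2, Eif2s1, Gdf15 and Pycr1 were not analysed here.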

Additional observations from a re-analysis of the deposited data

Results flagged for a closer look

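The 24 h wave differed between the 12 tissues, by the test of the difference itself, for Xbp1 (adjusted p = 1.58e-09), Atf4 (0.00315), Atf6 (1.67e-13), Ddit3 (0.000158), Herpud1 (8.09e-14), Trib3 (2.25e-09) and Asns (0.000239). That test passed for 49.6% of all genes. Between kidney and liver it differed for Atf4 (adjusted p = 0.0319) and Trib3 (adjusted p = 2.88e-08), where 15.6% of all genes passed.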

How the results depend on the processing

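Of the 22 called waves of 24 h, 11 kept the call under all 9 alternatives, among them Herpud1 in heart, kidney, liver and lung, Atf6 in its 3 tissues and Trib3 in liver. Normal scores of ranks left 14 calls and lost 8, with adjusted p-values from 0.0524 (Herpud1 in aorta) to 0.110 (Xbp1 in cerebellum). The other 8 alternatives gave 21 to 33 calls, the highest with array weights, which added 12 and lost 1. The filter on low intensity, which left out Trib3 in 10 tissues, gave 30. At 12 h array weights called 1 wave (Asns in white adipose, adjusted p = 0.0416), and the other 9 alternatives called 0. Between tissues all 7 genes passed at 24 h under 5 alternatives. At 12 h quantile normalization passed 1 (Trib3), leaving out arrays that stood apart passed 1 (Herpud1) and array weights passed 4. In kidney against liver, quantile normalization passed 4 and array weights 6, each with Atf4 and Trib3 among them. The share of all genes that passed under each alternative above is not given here, so these counts have no scale beside them. With quantile normalization of all arrays, 4 of 7 genes kept their highest and lowest tissue. Each gene had 1 probe set, so averaging probe sets left its values as they were. The causes of these changes were not tested. With sampling time as a block, added after seeing the data, all 7 genes passed between tissues at 24 h, where 51.4% of all genes did. At 12 h 2 passed (15.5% of all genes), and in kidney against liver 3 passed (16.7%). With the wave fitted to kidney minus liver at each time 4 passed (22.6% of all genes).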
